A study of Homo sapiens with 9 samples.

Results

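The ephrins and Eph receptors were the 10 genes EFNA1, EFNA3, EFNA4, EFNA5, EFNB1, EFNB2, EPHA2, EPHA4, EPHB2 and EPHB4, taken by gene name from a count table of 38021 genes. All 10 were found there, and all 10 were tested in every comparison. The same table lists 12 other genes of the family. RNA came from 786-O cells, an established line from a human clear cell renal cell carcinoma that has no functional VHL and therefore keeps HIF2α stable in normal oxygen. The question was how far gene expression in these cells depends on ARNT, the usual partner of HIF2α, and on its homolog BMAL1 (ARNTL), a core protein of the circadian clock. Cells of 3 groups received a PLKO.1 lentivirus that carried a control hairpin (shControl), a hairpin against ARNT (shARNT) or a hairpin against BMAL1 (shBMAL1). All groups were selected and kept in puromycin and grown in the same serum-containing medium. Each group had 3 libraries labeled as biological replicates, 1 hairpin stood for each target, and the labels do not say whether the replicates came from separate infections, so p values measure the spread between these libraries.

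Ephrins are ligands fixed to the cell surface, by a lipid anchor in the A class and by a membrane-spanning segment in the B class. Their receptors, the Eph proteins, are the largest family of receptor tyrosine kinases. Ligand and receptor meet where cells touch and signal into both cells, which steers repulsion, adhesion, migration and the sprouting of vessels. EFNA1 and EFNA3 are known to be induced by hypoxia, and EFNB2 with its receptor EPHB4 marks the border between arteries and veins.

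The bases upstream of 3 members are shown because EPHA4, EFNB2 and EFNA5 had the widest spread of group means in these libraries. They come from the RefSeq promoter table for GRCh38.p14, and each stretch matched GRCh37 at a single place, which gave the coordinates. Each reads 5′ to 3′ on the strand of its gene and ends at or just before an annotated transcript start. Capitals mark ACGTG or GCGTG on either strand, so that CACGT and CACGC are the same letters read on the opposite strand. ACGTG and GCGTG are the core letters that HIF heterodimers bind, and CACGTG, which contains ACGTG, is the E-box bound by BMAL1 with CLOCK.
EFNB2, chr13:107188011-107188260, minus strand: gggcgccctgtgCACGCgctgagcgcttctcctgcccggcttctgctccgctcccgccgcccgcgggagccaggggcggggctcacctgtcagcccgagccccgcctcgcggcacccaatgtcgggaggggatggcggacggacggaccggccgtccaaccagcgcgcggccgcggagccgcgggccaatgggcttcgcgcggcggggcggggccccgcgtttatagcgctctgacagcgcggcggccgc
EFNA5, chr5:107006639-107006888, minus strand: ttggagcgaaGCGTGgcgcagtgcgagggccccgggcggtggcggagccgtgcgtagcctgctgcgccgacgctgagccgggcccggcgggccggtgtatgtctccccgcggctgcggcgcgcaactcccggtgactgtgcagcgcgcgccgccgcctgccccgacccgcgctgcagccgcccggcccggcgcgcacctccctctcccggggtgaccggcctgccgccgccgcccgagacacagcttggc
EPHA4, chr2:222437079-222437274, minus strand: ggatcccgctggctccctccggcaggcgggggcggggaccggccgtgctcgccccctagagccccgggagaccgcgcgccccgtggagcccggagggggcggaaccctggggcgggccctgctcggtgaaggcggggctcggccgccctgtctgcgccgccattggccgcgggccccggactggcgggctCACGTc

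The EPHA4 stretch lies inside the annotated span of the gene (chr2:222282747-222438922), upstream of an internal start, and is cut to 196 bases where exons of EPHA4 begin. The outermost EPHA4 start has its own window, with GCGTG and without ACGTG. Over the 250 bases before the starts, 9 of the 10 members held ACGTG or GCGTG. Of 35116 promoters of the same length, 43.2% held either, as did 53.9% of the 15986 promoters of genes with counts here. EFNA4 was the member with no match. CACGTG was found in 0 members, against 6.3% of all promoters and 8.1% of those of counted genes. These are matches of letters, and binding was not analysed here.

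Levels are given as normalized read counts, which are deposited counts divided by a size factor for each library. Library totals ran from 33793045 to 35444735 reads. ARNT measured 2352 ± 184 (SD, n = 3) in shControl and 1225 ± 23.2 in shARNT, and ARNTL measured 761 ± 32 in shControl and 326 ± 29.2 in shBMAL1, so each target was lowest under its own hairpin. Each was also lower under the other hairpin, ARNTL at 633 ± 57.8 in shARNT (log2 -0.26, DESeq2 adjusted p = 0.0294) and ARNT at 2014 ± 76.2 in shBMAL1 (log2 -0.23, adjusted p = 0.0187). Mitochondrial genes took 4.94% to 6.54% of the reads in shControl, 6.97% to 8.13% in shARNT and 7.93% to 8.6% in shBMAL1, and the part of this difference in the results for the ephrins and their receptors was not tested. All 7 renal carcinoma cell markers were expressed, with sums of 138820 to 141186 in shControl, 128706 to 131815 in shARNT and 112963 to 126579 in shBMAL1. VIM made up most of these sums (97980, 86315 and 84876 in the group means), and single markers moved apart from them, as CA9, a known target of HIF, at 128 ± 18.9 in shControl, 17.7 ± 0.808 with shARNT and 265 ± 22.8 with shBMAL1. The 7 endothelial markers summed to between 17.6 and 41.7 in any library, with CDH5 at 0 in all 9. Of 6 immune cell markers, CD68 made up nearly the whole sum, and CD3E and LYZ were at 0. The 4 fibroblast markers summed to 232 to 289, 199 to 209 and 334 to 399 in shControl, shARNT and shBMAL1, with LUM (90.9 in shControl and 188 in shBMAL1) carrying the higher sum in shBMAL1 and DCN at or near 0, and their part in the results was not tested. In bulk RNA, fewer cells with a transcript and less transcript per cell cannot be told apart.

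EPHA4 rose and EPHA2 fell under both hairpins, whereas EFNB2 rose with shARNT and fell with shBMAL1. EFNA5 rose with shBMAL1, by 1.72-fold. A gene was called at a DESeq2 adjusted p under 0.1 over all genes tested. With shARNT, 1 member was lower and 3 were higher than in shControl, 4 of 10 in all, while 35.4% of all genes tested were called, 19.0% lower and 16.5% higher. With shBMAL1, 2 members were lower and 4 higher, and the background was 36.8% of genes, 19.4% lower and 17.4% higher. Between the hairpins, 2 members were lower in shBMAL1 than in shARNT and 3 were higher, with a background of 35.3%, 18.0% lower and 17.3% higher. The 4 members higher with shBMAL1 became 2 without shControl replicate 1, shControl replicate 2 or shBMAL1 replicate 1, and no test of the members against all genes was made. The median log2 fold change of the 10 members was 0.10 with shARNT and 0.33 with shBMAL1, beside 0.003 and 0.015 for all genes tested. Both comparisons use the same shControl libraries, so their values are given side by side and were not correlated.

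**Figure D1:**
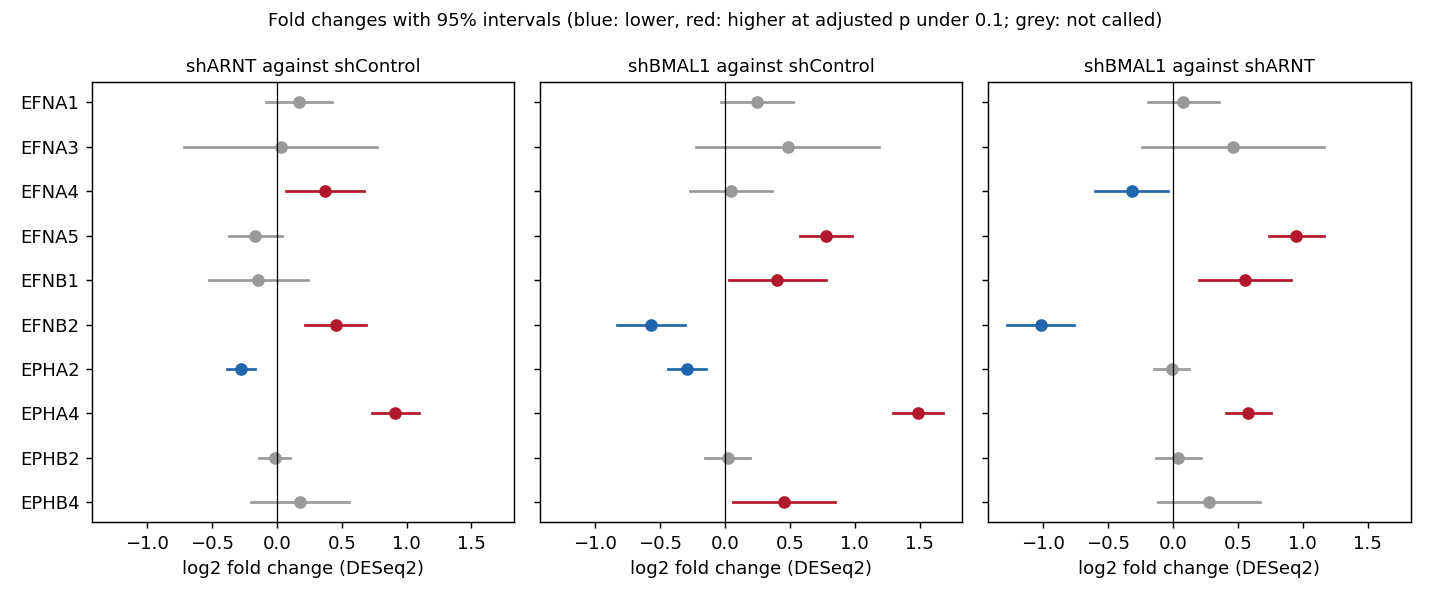
Log2 fold changes (x axis, DESeq2) of the 10 members in 3 comparisons, with 95% intervals as bars; blue marks lower, red higher at adjusted p under 0.1, and grey not called. EPHA4 lies right of 0 in every panel, and EFNB2 lies right of 0 with shARNT and left of 0 with shBMAL1.

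The A ephrins were EFNA1, EFNA3, EFNA4 and EFNA5. EFNA5, which guides growing axons and also binds EPHB2, had normalized counts of 584, 621 and 568 in the shControl libraries, 568, 481 and 525 with shARNT, and 1037, 1100 and 909 with shBMAL1. Every shBMAL1 library stood above all 6 others, and the shARNT libraries lay at or below the lowest shControl library. EFNA5 rose by 0.78 on the log2 scale (SE 0.10, DESeq2 adjusted p = 1e-12) with shBMAL1, and its value with shARNT was -0.17 (SE 0.11, adjusted p = 0.236). Between the hairpins EFNA5 was 1.93-fold higher in shBMAL1 (log2 0.95, SE 0.11, adjusted p = 4.19e-17). Of 12935 genes with a mean of at least 50 normalized counts, 4.41% had as high a log2 fold change as EFNA5 with shBMAL1.

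EFNA1, EFNA3 and EFNA4 sit side by side on chromosome 1 within chr1:155036213-155107375, all on the plus strand. EFNA4 had normalized counts of 218, 203 and 279 in shControl, 334, 284 and 285 with shARNT, and 256, 235 and 234 with shBMAL1. The shARNT libraries stood above all others, and the shBMAL1 libraries fell inside the shControl range. The log2 fold change of EFNA4 was 0.37 with shARNT (SE 0.16, DESeq2 adjusted p = 0.0552), 0.05 with shBMAL1 (adjusted p = 0.87) and -0.32 between the hairpins (SE 0.14, adjusted p = 0.0802). The call with shARNT ended without shControl replicate 1, shControl replicate 2 or shARNT replicate 1, where the DESeq2 adjusted p was 0.206, 0.264 and 0.273. The call between the hairpins ended without any shARNT library or without shBMAL1 replicate 2 or 3, at DESeq2 adjusted p values of 0.115 to 0.341. EFNA4 had fractional deposited counts in 8 of the 9 libraries, and both it and EFNA3 overlap the readthrough gene EFNA4-EFNA3, so their counts are uncertain.

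The hypoxia-inducible EFNA1 had normalized counts of 293, 282 and 283 in shControl, 333, 299 and 332 with shARNT, and 328, 299 and 392 with shBMAL1. Neither knockdown overlapped shControl, yet the difference did not pass the test over all genes. The log2 fold change of EFNA1 was 0.17 with shARNT (95% interval -0.08 to 0.43, DESeq2 adjusted p = 0.35) and 0.25 with shBMAL1 (-0.03 to 0.53, adjusted p = 0.192). EFNA3 was the least abundant member, at 27.2 to 36 in shControl, 28.8 to 39 in shARNT and 35.3 to 55.8 in shBMAL1. Its log2 fold changes of 0.03 and 0.49 had 95% intervals of -0.72 to 0.78 and -0.22 to 1.19, so at this depth a change of either sign remained inside the interval.

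Among the B ephrins, EFNB2 moved in opposite directions under the hairpins. EFNB2, the transmembrane ligand of arterial endothelium, had normalized counts of 440, 373 and 407 in shControl, 578, 483 and 607 with shARNT, and 253, 280 and 289 with shBMAL1. No group overlapped another. EFNB2 rose by 1.37-fold with shARNT (log2 0.46, SE 0.12, DESeq2 adjusted p = 0.001) and its log2 fold change with shBMAL1 was -0.57 (SE 0.13, adjusted p = 0.000132). Between the hairpins EFNB2 was lower in shBMAL1 by a log2 value of -1.02 (SE 0.13, DESeq2 adjusted p = 1.59e-13), and 1.05% of the 12935 genes had as low a value. The 7 endothelial markers summed to 37.2 to 39 normalized counts in shControl, 26.5 to 41.7 in shARNT and 17.6 to 31.2 in shBMAL1. Against shControl only TIE1 was called, at means of 21.5 in shControl and 6.99 in shBMAL1 (log2 -1.62, DESeq2 adjusted p = 0.0311). CLDN5, at 1.01 and 4.66, had the other sign and was not called (log2 2.21, DESeq2 adjusted p = 0.262). The part of these markers in the EFNB2 result was not tested.

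EFNB1, an X-linked B ephrin whose loss disturbs the development of the skull, had normalized counts of 128, 169 and 190 in shControl, 130, 162 and 148 with shARNT, and 230, 178 and 236 with shBMAL1. The shBMAL1 libraries stood above every shARNT library and overlapped shControl. EFNB1 had a log2 fold change of 0.40 with shBMAL1 (SE 0.19, DESeq2 adjusted p = 0.0928), -0.14 with shARNT (adjusted p = 0.649) and 0.55 between the hairpins (SE 0.18, adjusted p = 0.0104). The call against shControl ended without shControl replicate 1 or 2 or shBMAL1 replicate 1 or 3, at DESeq2 adjusted p values of 0.144 to 0.399. It also ended with TMM size factors (DESeq2 adjusted p = 0.1), without independent filtering (0.12) and with a replicate block in the fit (0.182).

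**Figure D2:**
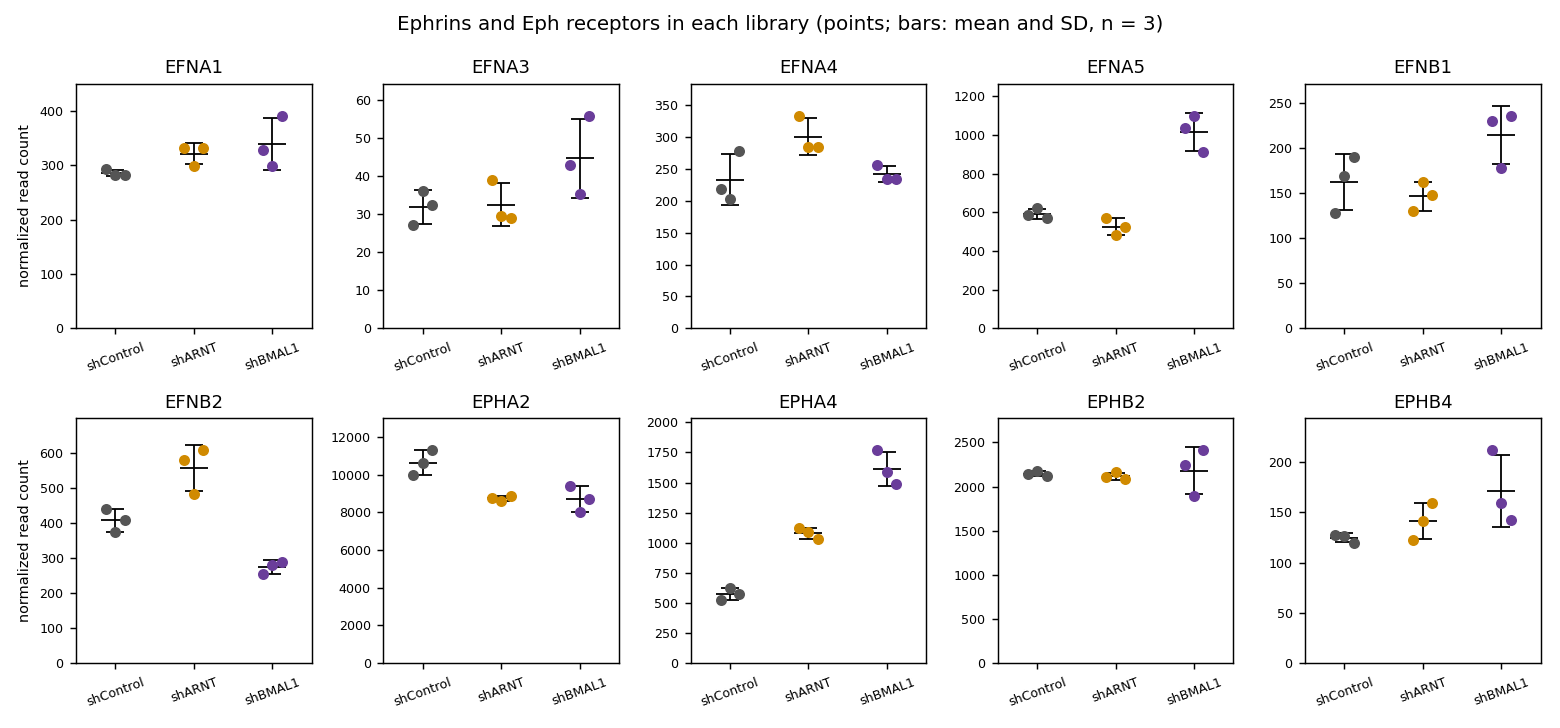
Normalized read counts (y axes, linear, each from 0) of the 10 members in the 9 libraries, as points by group, with the mean and SD (n = 3) as bars. The groups do not overlap for EFNB2 and EPHA4, and the shControl libraries of EPHA2, at 9985 to 11292, stand above the other 6.

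The members among the A receptors were EPHA2 and EPHA4, of which EPHA2 was the more abundant and EPHA4 had the larger fold changes. EPHA2, a receptor that many carcinomas express at high level, had normalized counts of 9985, 10642 and 11292 in shControl, 8766, 8613 and 8866 with shARNT, and 9397, 8002 and 8688 with shBMAL1. All 6 knockdown libraries were below all 3 shControl libraries. Its log2 fold change stood at -0.28 with shARNT (SE 0.05, DESeq2 adjusted p = 3.62e-06) and -0.29 with shBMAL1 (SE 0.075, adjusted p = 0.000541). Between the hairpins the difference was -0.01 (95% interval -0.15 to 0.13, DESeq2 adjusted p = 0.943).

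EPHA4, which binds ephrins of both classes, had normalized counts of 526, 623 and 575 in shControl, 1120, 1088 and 1028 with shARNT, and 1768, 1585 and 1487 with shBMAL1. The groups formed 3 separate levels, lowest in shControl and highest in shBMAL1. EPHA4 rose by 1.88-fold with shARNT (log2 0.91, SE 0.09, DESeq2 adjusted p = 3.2e-21) and by 2.80-fold with shBMAL1 (log2 1.49, SE 0.10, adjusted p = 6.46e-48). It was 1.49-fold higher in shBMAL1 than in shARNT (log2 0.58, SE 0.09, adjusted p = 1.39e-09). Of the 12935 genes, 1.01% had as high a log2 fold change with shARNT and 0.99% with shBMAL1.

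Among the B receptors, EPHB4 was called with shBMAL1 and EPHB2 in neither knockdown. EPHB2, which positions cells along the intestinal crypt, had normalized counts of 2145, 2177 and 2120 in shControl, 2105, 2163 and 2087 with shARNT, and 2239, 1893 and 2411 with shBMAL1. Its groups overlapped, and its log2 fold changes were -0.02 (95% interval -0.14 to 0.10, DESeq2 adjusted p = 0.886) and 0.02 (-0.16 to 0.20, adjusted p = 0.904). EPHB4, the venous partner of EFNB2, had normalized counts of 128, 127 and 120 in shControl, 123, 142 and 159 with shARNT, and 212, 159 and 143 with shBMAL1. The shBMAL1 libraries stood above shControl, with shBMAL1 replicate 1 far above the others. EPHB4 had a log2 fold change of 0.45 with shBMAL1 (SE 0.20, DESeq2 adjusted p = 0.0688) and 0.18 with shARNT (adjusted p = 0.542). That call ended when any shControl library or shBMAL1 replicate 1 or 2 was left out, at DESeq2 adjusted p values of 0.103 to 0.407. It also ended with a replicate block in the fit (DESeq2 adjusted p = 0.178). EPHB4 shares its 5′ end with SLC12A9 on the opposite strand, and whether reads were counted by strand is not given in the sources used here, so its counts are uncertain. The same limit holds for EFNB2, EPHA2, EPHA4 and EPHB2, which overlap annotated long non-coding RNA genes on the opposite strand. For EFNB2 this overlap runs over chr13:107143495-107173978.

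Levels were compared between genes as normalized reads per kb of exon, with all annotated exons of a gene merged. The longest transcript is shorter, as 1552 against 2165 bases for EFNA1 and 6362 against 7554 for EPHA4. The order and overlaps below hold for the merged length, and no order was made with the longest transcript. EPHA2 led in every group, at 2569 ± 158 per kb in shControl, 2113 ± 30.7 with shARNT and 2100 ± 169 with shBMAL1, and stood at the 96.9 percentile of expressed genes in shControl. The next member in shControl was EFNA4 at 186 ± 32 per kb, whose range overlapped that of EPHB2 at 172 ± 2.3. EFNA1 followed at 132, EFNA5 at 103, EFNB2 at 81.3 and EPHA4 at 76.1 per kb, of which only EFNB2 and EPHA4 overlapped. EFNB1 at 49.1, EPHB4 at 19.4 and EFNA3 at 16.4 per kb closed the order, with no overlap. With shBMAL1, EPHA4 was next to EPHA2 at 214 ± 18.9 per kb. Its range overlapped that of EFNA4, and the ranges of EFNA4, EFNA5, EPHB2 and EFNA1 each overlapped the next in that order.

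Shares were taken within each class over the listed members alone, so EPHA5 and EPHA6 were left out of the A receptors and EPHB1, at 62.9 ± 3.97 per kb in shControl and 106 ± 3.92 in shBMAL1, out of the B receptors. EPHA4 made up 2.88% ± 0.205 (SD, n = 3) of the summed A receptor reads per kb in shControl, 6.33% ± 0.311 with shARNT and 9.24% ± 0.615 with shBMAL1. The sum of EPHA2 and EPHA4 was 2645 ± 161, 2255 ± 27.8 and 2314 ± 181 per kb in the same order. EPHB4 made up 10.4%, 10.2% and 9.94% of both B receptors in the shControl libraries, 10.2%, 11.3% and 12.9% with shARNT, and 15.6%, 14.1% and 10.3% with shBMAL1, and these ranges overlapped. EFNB2 made up 62.4% ± 6.07 of the B ephrin reads per kb in shControl, 71.3% ± 4.42 with shARNT and 45.9% ± 4.55 with shBMAL1. In shBMAL1 libraries its share was 42%, 50.9% and 44.7%, below every library of the other groups. EFNA5 made up 23.7% ± 2.38 of the A ephrin reads per kb in shControl, 18.4% ± 0.34 with shARNT and 32.3% ± 3.63 with shBMAL1. A ephrin reads summed to 437 ± 27.2, 496 ± 39 and 549 ± 12.3 per kb.

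**Figure D3:**
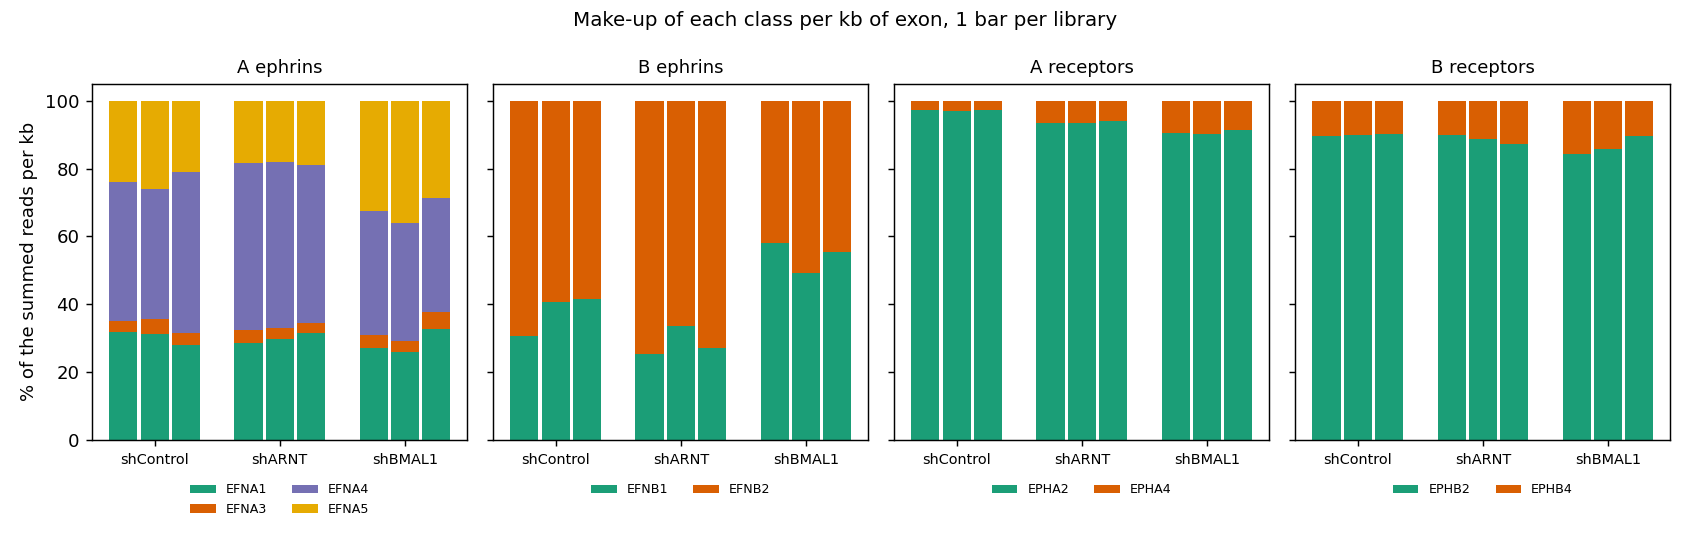
Share of each member (y axis, % of the normalized reads per kb summed over the listed members of its class), with 1 stacked bar per library and 3 bars per group. EPHA4 takes a growing share of the A receptors from shControl to shARNT to shBMAL1, and EFNB2 its smallest share of the B ephrins in shBMAL1.

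Ratios of ligand to receptor within a library do not depend on the scaling between libraries. The EFNB2 to EPHB4 ratio, per kb, was 4.43, 3.78 and 4.36 in shControl, 6.05, 4.36 and 4.91 with shARNT, and 1.53, 2.26 and 2.6 with shBMAL1. The shBMAL1 libraries lay below all others (0.498 of the shControl ratio), with p = 0.1 in a two-sided exact permutation test, the smallest p that 3 against 3 libraries allow. The EFNA1 to EPHA2 ratio was 0.0516 ± 0.00415 in shControl, 0.0702 ± 0.00344 with shARNT and 0.0748 ± 0.0102 with shBMAL1. Both knockdowns lay above shControl in every library (exact permutation p = 0.1 for each). After adjustment over the 6 ratio tests none passed, and the lowest adjusted exact p was 0.15.

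Of the 12 other family genes, EPHB1, EPHA6 and EPHA5 had a mean of at least 10 normalized counts. EPHB1, a B receptor of axon guidance, had 386, 375 and 342 in shControl, 402, 416 and 360 with shARNT, and 642, 597 and 622 with shBMAL1. It rose with shBMAL1 (log2 0.75, SE 0.11, DESeq2 adjusted p = 4.52e-10), with 0.10 for shARNT (adjusted p = 0.605). EPHA6, an A receptor, had 45.3, 44 and 54.6 in shControl, 48.7, 70.7 and 53.7 with shARNT, and 179, 140 and 161 with shBMAL1, a log2 fold change of 1.74 with shBMAL1 (DESeq2 adjusted p = 3.25e-12). Both were thus highest in the shBMAL1 libraries, without overlap. EPHA5 had normalized counts of 18.1, 13 and 6.07 in shControl, 22.4, 31.4 and 22.9 with shARNT, and 12.9, 8.06 and 9.79 with shBMAL1, and was called between the hairpins (log2 -1.32, DESeq2 adjusted p = 0.0409). That call ended without shARNT replicate 2 or shBMAL1 replicate 2 or 3 (DESeq2 adjusted p of 0.113 to 0.209). With shARNT the log2 fold change of EPHA5 was 1.05 (DESeq2 adjusted p = 0.126), and it was called by edgeR (adjusted p = 0.0495), with a minimum of 10 counts in 3 libraries (0.0935) and without shControl replicate 1 (0.094). Its counts are uncertain because the antisense gene EPHA5-AS1 is also counted. EPHA3, EPHA7 and EPHA8 had 0 reads in all 9 libraries.

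The proteins through which Eph receptors and ephrins signal were counted over 3 lists with 54 genes, of which 52 were tested, and the adaptors and the proteases among them are described here. With shARNT, 13 of these were lower and 11 higher, and with shBMAL1, 20 were lower and 9 higher. Of all genes tested, 19.0% were lower and 16.5% higher with shARNT, and 19.4% lower and 17.4% higher with shBMAL1. Their median log2 fold changes were -0.06 and -0.11. Among 20 adaptors, kinases and phosphatases, 6 were lower and 5 higher with shARNT, 8 lower and 4 higher with shBMAL1. NCK1 rose and NCK2 fell with shARNT (log2 0.39 and -0.39, DESeq2 adjusted p = 0.000593 and 9.01e-05), although both encode closely related adaptors. GRB7, another adaptor, was at -0.43 and INPPL1, a lipid phosphatase that binds EPHA2, at 0.24 on that scale. With shBMAL1, FYN, a Src family kinase that acts beside EPHA4, rose by 1.14 on the log2 scale (DESeq2 adjusted p = 7.5e-19), and CBL, a ubiquitin ligase that marks activated receptors for degradation, fell by 0.75 (adjusted p = 3.31e-12). The kinase ABL2 was at -0.57 (DESeq2 adjusted p = 8.65e-09), and ANKS1A, an adaptor of EPHA receptors, at 0.34 (adjusted p = 0.00196). NCK1, GRB7 and CBL were called in the other knockdown too, NCK1 and GRB7 at 0.27 and 0.26 with shBMAL1 (DESeq2 adjusted p = 0.0479 and 0.0694) and CBL at -0.32 with shARNT (adjusted p = 0.00109), so that GRB7 had opposite signs under the hairpins.

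The 15 proteases and PDZ partners had 2 lower and 3 higher with shARNT and 5 lower and 4 higher with shBMAL1, beside 19.0% lower and 16.5% higher of all genes with shARNT and 19.4% and 17.4% with shBMAL1. SDCBP, a PDZ protein that binds the tail of B ephrins, had the same signs as EFNB2, with log2 0.44 in shARNT (DESeq2 adjusted p = 2.81e-08) and -0.43 in shBMAL1 (adjusted p = 4.11e-10). MMP14, a membrane protease able to cleave EPHA2, was lower under both hairpins, at -0.33 with shARNT and -0.31 with shBMAL1 (DESeq2 adjusted p = 2.83e-09 and 2.73e-06). Of the γ-secretase subunits, APH1A fell by 0.84 with shBMAL1 (DESeq2 adjusted p = 2.77e-33), and NCSTN was at 0.18 with shARNT and 0.29 with shBMAL1 (adjusted p = 0.00345 and 0.000246). PARD6B, a polarity protein, rose by 0.84 with shBMAL1 (adjusted p = 2.88e-05), and RGS3, which B ephrins bind, was at -0.13 with shARNT and -0.28 with shBMAL1 (adjusted p = 0.0869 and 0.000721).

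Genes known to respond to ERK, a kinase whose activity Eph receptors can lower or raise, were called in the lower direction where they were called against shControl. With shARNT, 4 of 8 were lower and 0 higher, and with shBMAL1, 6 of 8 were lower and 0 higher, with median log2 fold changes of -0.23 and -0.65. The shares of all genes called lower were 19.0% and 19.4%. The cyclin gene CCND1 had -0.85 with shARNT and -0.57 with shBMAL1 (DESeq2 adjusted p = 6.17e-45 and 1.44e-13). The transcription factor genes ETV4 and ETV5 had -0.56 and -0.20 with shARNT, and -2.04 and -0.69 with shBMAL1. SPRY2, a feedback inhibitor of the pathway, had -0.46 and -0.60. PHLDA1 and SPRY4 were called with shBMAL1 (log2 -1.21 and -0.85, DESeq2 adjusted p = 1.52e-09 and 0.0835), with -0.26 and 0.28 for shARNT. The phosphatase genes DUSP4 and DUSP6 were called in neither, at 0.11 and 0.02 with shARNT and 0.18 and -0.15 with shBMAL1. These 8 genes are transcripts, and the activity of ERK was not measured.

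**Figure D4:**
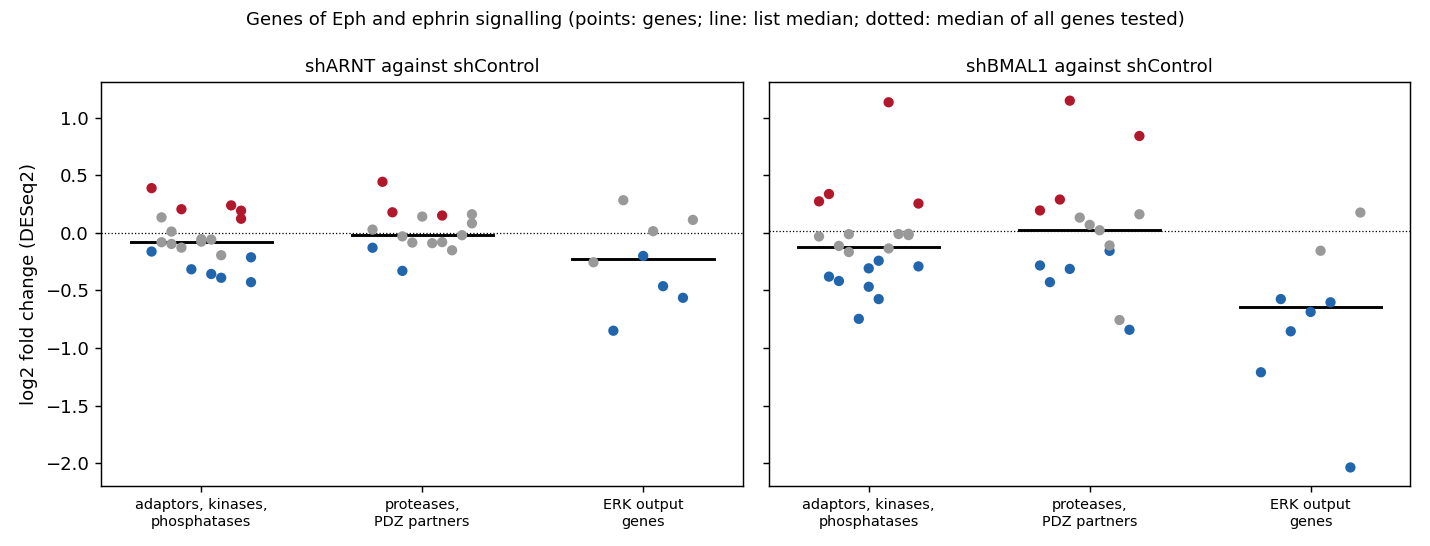
Log2 fold changes (y axis, DESeq2) of the genes of each list as points, with shARNT left and shBMAL1 right; blue and red mark lower and higher at adjusted p under 0.1, black lines the list medians and the dotted line the median of all genes tested. With shBMAL1 the 8 ERK output genes have a median of -0.65, and ETV4, at -2.04, is the lowest point.

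For the 3 members with the widest range of group means, the genes with the most similar pattern were taken by Pearson r of log2(normalized count + 1) over the 9 libraries, among 12918 genes with a mean of at least 50. Names turned into dates were left out here, whereas the 12935 genes above are those that were tested, with such names. The libraries of a group share their hairpin, so any gene with the same order of group means scores high, and r is given as a description. For EPHA4 these were GPRC5C (r = 0.992), LOC153684 and ATOH8, of which GPRC5C had means of 1631, 3053 and 4383 in shControl, shARNT and shBMAL1. For EFNB2 they were NAMPT (r = 0.988), MAPK8IP2 and TYW3, with MAPK8IP2 at 112, 217 and 49.9. For EFNA5 they were EPB41L4A (r = 0.991), PKD2 and LOC105373347, with PKD2 at 5031, 4526 and 6849.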

How the data were processed

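Poly(A) RNA of 9 libraries of 786-O cells was analysed, 3 per group, with groups and replicate numbers taken from the labels. The deposited values were estimated counts per gene, made by the authors and not normalized. The study's methods give paired-end reads, SeqMan NGen as the aligner against GRCh37 and ArrayStar for counting, whereas the submitters' processing notes name hg38, STAR and DESeq2. The annotation used for counting, and whether it used strand, were not given in the sources used here. A value of 0.009 stood for 0 (46.28% of cells) and was set to 0, and fractional values, 6.14% of the remainder, were rounded. The 53 lines that shared a name were added up, which left 38021 genes. No line lacked a name, and 28 had a name turned into a date and were not named.

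Each comparison was fitted in DESeq2 1.42.0 (R 4.3.3) on the 6 libraries of its groups, with the Wald test, independent filtering and Benjamini-Hochberg adjustment over all genes, and called at adjusted p under 0.1. All p values are two-sided. Normalized counts used size factors over all 9 libraries, and intervals are 95% Wald intervals. Totals of 33793045 to 35444735 reads make depth nearly equal, and libraries of a group differed by more than sampling noise (chi-square per degree of freedom 7.18 to 16.4), so none was a second copy. Alternatives were edgeR 4.0.16 (quasi-likelihood, TMM), TMM size factors, at least 10 counts in 3 libraries, no independent filtering, adjusted p under 0.05, at least 1.5-fold, a fit of all 9 libraries, a replicate block and leaving out each library. The fits were tested on simulated data. Exon lengths and positions were read from GENCODE lifted to GRCh37 (23495 genes matched, with 93.35% of the reads), and promoters from RefSeq.

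The members and lists were chosen with earlier results of these data known. Named genes were the 10 members, the targets, other family genes with a mean of at least 10, the 2 lowest and 2 highest called genes of each list with a mean of at least 50 in each knockdown, the 8 ERK output genes, genes within 100 kb of the ephrin cluster on chromosome 1 called in both knockdowns, and the 3 genes most like each of 3 members. The members of 1 of the 3 signaling lists are not reported here. MMP14, RGS3, NCK1 and GRB7 with shBMAL1, CBL with shARNT, SHC1, TIE1, CLDN5, VIM, CA9, LUM, DCN, CD68, CDH5, CD3E and LYZ were named after their values were seen.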

Additional observations from a re-analysis of the deposited data

Results flagged for a closer look

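Of the 10 members and 3 other family genes, 8 differed between the effects of the hairpins by the direct test of shBMAL1 against shARNT (DESeq2 adjusted p under 0.1), where 35.3% of all genes tested were called. EFNB2 had a log2 difference of -1.022, with opposite signs against shControl. EFNA5 differed by 0.950, EPHA4 by 0.580 and EFNB1 by 0.551, each higher in shBMAL1. EFNA4 was lower in shBMAL1, at -0.318, and this call ended when any of 5 libraries was left out. Among the other family genes the log2 difference was 1.469 for EPHA6, 0.658 for EPHB1 and -1.319 for EPHA5, the last from counts of at most 31.4 per library. The targets differ in level between the groups, 1 hairpin was used for each, and effects of the hairpin and of the target cannot be told apart.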

How the results depend on the processing

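The 10 members in 3 comparisons had 420 alternatives, from other fits or from stricter thresholds on the main fit. The direction and side of the threshold stayed in 374, while 38 lost a call, 0 gained a call and 8 changed sign. The stricter thresholds could neither change a direction nor gain a call. EPHA4, EFNA5 with shBMAL1 and EFNB2 kept their direction in every alternative run, and lost a call under the 1.5-fold minimum alone (EPHA4 between the hairpins, and EFNB2 against shControl in both knockdowns). All sign changes came from uncalled values when 1 library was left out. Log2 values over these fits ran from -0.125 to 0.127 for EFNA3 with shARNT, from -0.045 to 0.194 for EFNA4 with shBMAL1, from -0.058 to 0.115 for EPHB2 with shBMAL1, and, for EPHA5 with shBMAL1, from -0.605 to 0.10. Between the hairpins they ran from -0.037 to 0.162 for EFNA1, from -0.067 to 0.047 for EPHA2, from -0.038 to 0.133 for EPHB2 and from -0.022 to 0.163 for the EFNA1 to EPHA2 ratio. With a minimum of 1.5-fold, genes called fell to 711 lower and 489 higher with shARNT, 1070 and 1536 with shBMAL1, and 696 and 1368 between the hairpins, by construction. Members called were then 0 lower and 1 higher, 0 and 2, and 1 and 1, and pathway genes 0 and 2, 2 and 4, and 3 and 5. The count of members higher with shBMAL1, 4, became 2 at adjusted p under 0.05 and 2 to 3 when a library was left out. The count of members lower between the hairpins, 2, became 1 at adjusted p under 0.05, 1 without independent filtering, and 1 to 2 when a library was left out. Deviations from the group mean had correlations of -0.154 to 0.105 between same-numbered libraries of different groups, and -0.266 to 0.235 between differently numbered ones. The 3 deviations of a gene within a group depend on each other, so these values cannot settle whether same-numbered libraries belong together. A fit with a replicate block gave 2 members higher with shARNT (3 without it, EFNA4 at DESeq2 adjusted p = 0.139). It gave 2 higher with shBMAL1, 1 lower between the hairpins and 7 pathway genes higher with shARNT (11 without it). EPHA5 lost its call between the hairpins under the block (DESeq2 adjusted p = 0.135). The causes were not tested. With 3 libraries per group, intervals for EFNA3 remained wide, and EPHA5 had at most 31.4 normalized counts in a library.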

Other observations

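The cluster of EFNA4, EFNA3 and EFNA1 has 18 annotated genes in the table within 100 kb. With shARNT 13 of these were tested, 1 was lower and 4 were higher, and with shBMAL1 15 were tested, 2 were lower and 3 were higher. Of all genes tested, 35.4% and 36.8% were called in these comparisons, so the neighbours were called about as often as genes in general, and those called in both knockdowns are given as values. CKS1B, a small cell cycle protein, was lower in both (log2 -0.39 and -0.38, DESeq2 adjusted p = 6.5e-05 and 0.000339). MUC1, a mucin of epithelial surfaces, was higher in both (log2 0.36 and 0.75, DESeq2 adjusted p = 0.0575 and 4.21e-05). The adaptor gene SHC1, which lies there too and also stands in the list of adaptors, was at 0.01 with shARNT and -0.42 with shBMAL1 (DESeq2 adjusted p = 0.91 and 7.87e-09).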
